A study of Mus musculus with 47 samples.

Results

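The genes described here are the subunits and direct opponents of the Polycomb repressive complexes together with the enzymes that place or remove methyl groups on lysine 4 and lysine 27 of histone H3, 47 genes of the 23416 in the count files. They were chosen by name, as a list of known regulators. The rule uses no measured value, but the list was proposed with earlier results of these data known. Of the 47, 43 were found by their current symbol and 4 by an older symbol: Kmt2a is listed as Mll1, Kmt2b as Wbp7, Kmt2c as Mll3 and Kmt2d as Mll2. RNA was measured in 10 mouse libraries, with 2 libraries in each of 5 groups: Ctrl-F1 liver, KO-F1 liver, Ctrl-F1 sperm, KO-F1 sperm and KO-F2 sperm. KO-F1 males were fathered by Scml2-KO (-/y) males, made in C57BL/6 with a zinc finger nuclease and infertile, whose testicular sperm were injected into BDF1 oocytes, and Ctrl-F1 males were made in the same way with sperm of wild-type littermates. Because Scml2 is on the X chromosome and sons receive their X from the mother, KO-F1 males did not carry the deletion, so every comparison below is between mice that are Scml2 wild type, and what differs is the father or grandfather. KO-F2 males came from natural mating of KO-F1 males with C57BL/6 females, so KO-F2 differed from both F1 groups in generation, in the way of conception and in genetic background (labelled BDF3 against BDF2). All animals were 8 to 12 weeks old. The study's methods call the libraries of a group independent biological replicates, without saying how many animals stand behind each, and p-values measure the spread between them.

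Polycomb repressive complex 2 (PRC2) methylates lysine 27 of histone H3, and its product H3K27me3 marks silenced developmental genes. Polycomb repressive complex 1 (PRC1) ubiquitinates histone H2A and compacts chromatin through its PHC subunits. SCML2 is a germline protein that, per the study, binds both PRC1 and PRC2 and helps to set H3K27me3 in late spermatogenesis. The KMT2 and SETD1 complexes place methyl groups on lysine 4, a mark of active or poised promoters, and KDM5 and KDM1A remove them, as KDM6 does for lysine 27. Mouse sperm keep both marks at the promoters of developmental genes, which is the background of the question the samples address: whether males fathered by Scml2-KO germ cells have altered RNA in liver and sperm.

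Depth differed between the tissues and between the sperm groups. The liver libraries held 11339729 to 14278900 counts, the F1 sperm libraries 1503733 to 2778171 and the KO-F2 sperm libraries 8384266 and 11462105. At least 10 counts were reached by 45 members in each liver library, by 38 and 24 in Ctrl-F1 sperm, by 42 and 37 in KO-F1 sperm and by 45 and 44 in KO-F2 sperm. The 95% interval of a member's log2 fold change reached 0.50 to either side in liver (median over members) and 2.02 in sperm for KO-F1 against Ctrl-F1. The tissues matched their labels: 16 hepatocyte genes made up 15.4% to 17.0% of liver counts and at most 0.0009% of sperm counts. Sperm had been separated by swim-up before extraction, and RNA of marker genes still differed between the sperm groups. A list of 40 late spermatogenesis genes held 15.03% and 13.2% of counts in Ctrl-F1 sperm, 6.52% and 5.03% in KO-F1 sperm, and 17.4% and 17.2% in KO-F2 sperm. A list of 29 epididymal epithelium genes held 3.31% and 1.61% in Ctrl-F1 sperm, 8.52% and 4.93% in KO-F1 sperm, and 1.07% and 0.442% in KO-F2 sperm. Its leading gene in KO-F1 sperm was Gpx3, with 80.5% and 63.2% of the list's counts, followed by Crisp1. Without Gpx3 the list held 2.49% and 0.897% in Ctrl-F1 sperm, 1.66% and 1.81% in KO-F1 sperm, and 0.510% and 0.269% in KO-F2 sperm, so that the F1 groups overlapped and KO-F2 stayed lowest. A list of 18 leukocyte genes held 0.0456% to 0.0922% in F1 sperm and 0.400% and 0.572% in KO-F2 sperm, where Lyz2 and Cd74 led. In a further list, of muscle and blood genes, Hbb-bs had 134 to 317 counts in F1 sperm libraries. It had 9606 and 83635 in the deeper KO-F2 libraries, which thus also differed from each other. Alas2 had 2 to 22 counts in F1 sperm and 251 and 3603 in KO-F2 sperm. Of the 6 genes of that list tested in KO-F2 against KO-F1 sperm, 2 had a positive sign and 4 a negative one. The part of any other cells in the differences between sperm groups was not tested.

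Scml2, whose deletion the fathers or grandfathers of the KO groups carried, had no count in any of the 4 liver libraries. Its sperm counts were 0 and 18 for the Ctrl-F1 libraries, 0 and 4 for KO-F1, and 6 and 9 for KO-F2, so the groups overlapped. It was too low for the test in each comparison within a tissue. A count of 0 in the liver libraries allowed at most 0.210 to 0.265 CPM (counts scaled to a common library size), taking 3 counts as the limit. These counts do not check the genotype, since the fathers' RNA was not measured here.

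Levels per exon length gave each tissue its own leading members. In Ctrl-F1 liver the highest were Rbbp4 and Rbbp7, histone-binding subunits that PRC2 shares with other complexes, at 31.8 ± 0.82 and 23.8 ± 1.57 normalized CPM per kilobase (SD, n = 2), followed by Dpy30, a shared subunit of the H3K4 methyltransferases, at 20.3 ± 0.38, and its partner Wdr5 at 11.3 ± 0.02. In Ctrl-F1 sperm Rbbp7 had the highest mean, at 42.3 ± 30.6, and the PRC1 subunits Phc1 (25.1 ± 5.72), Phc2 (18.7 ± 1.66) and Bmi1 (16.8 ± 2.38) came next. Rbbp7 was at 20.7 in Ctrl-F1 sperm 1, just under Phc1 at 21.1, and at 64.0 in Ctrl-F1 sperm 2. Phc1 stood at 45 of 47 in Ctrl-F1 liver and at 2 of 47 in Ctrl-F1 sperm. The PRC2 accessory protein Phf19 stood at 46 and 6, and the PRC1 reader Cbx6 at 44 and 7. Neighbours in the sperm order, such as Phc2 and Bmi1, did not differ beyond the spread of their 2 libraries. The median member level was 2.28 in Ctrl-F1 liver and 2.61 in Ctrl-F1 sperm, against 2.37 and 3.27 for all genes with a count. The 6 catalytic H3K4 genes stood between 36 (Kmt2a) and 45 (Kmt2b) in the order of Ctrl-F1 sperm. In Ctrl-F1 liver they ran from 23 (Setd1a) to 43 (Kmt2a).

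**Figure D1:**
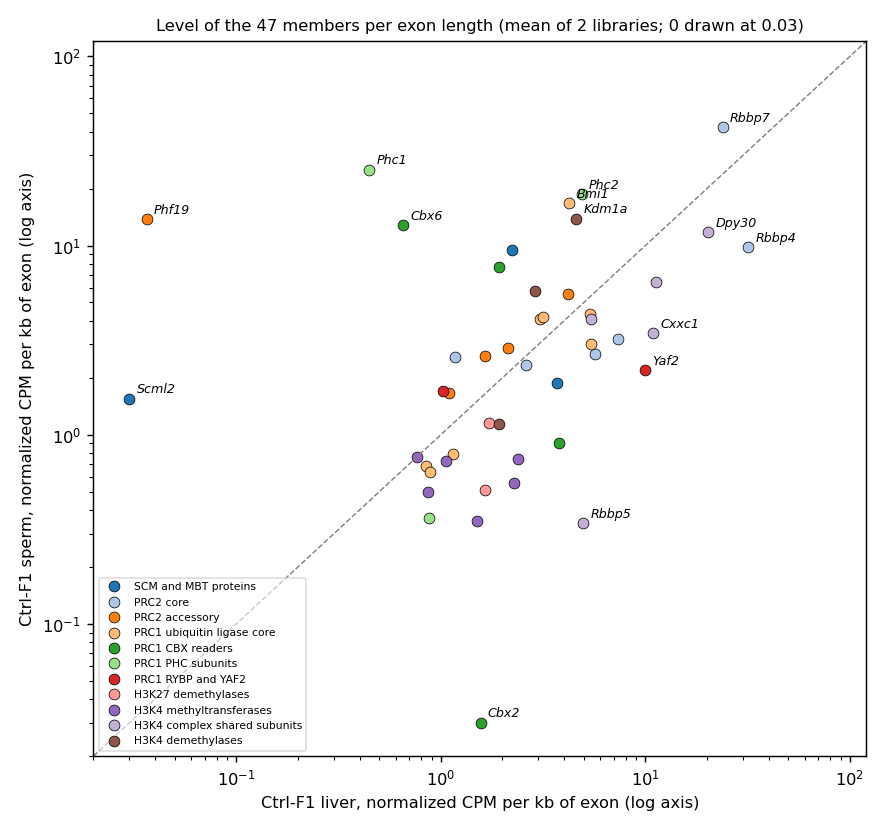
Mean level of the 47 members per kilobase of exon in Ctrl-F1 liver (horizontal) and Ctrl-F1 sperm (vertical), both in normalized CPM per kilobase on log axes, each point 1 gene coloured by its role, with the dashed line marking equal levels and a level of 0 drawn at 0.03. Phc1, Phf19 and Cbx6 sit far above the line and Cbx2 and Rbbp5 far below it.

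Against liver, 6 of the 46 members tested were called in Ctrl-F1 sperm, meaning a fold of at least 2 with an adjusted p under 0.01 (edgeR quasi-likelihood test, Benjamini-Hochberg), where 30.2% of all genes were called. Of these, 5 were higher and are PRC1 or PRC2 components: Phf19, Phc1, Cbx6, Bmi1 and Phc2. The call was lower for Rbbp4. At an unadjusted p under 0.05, 8 members were higher, where 31.1% of all genes were, and 6 were lower, where 27.9% were. The count called moved widely when 1 library was left out, and the share of all genes called in those fits was not determined. Tissue and library kit changed together here (a stranded mRNA kit for liver, whole-transcript amplification for sperm), so they cannot be told apart.

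Phc1, a polyhomeotic subunit through which PRC1 complexes join together, had 1.85 and 1.68 normalized CPM in Ctrl-F1 liver and 83.2 and 115 in Ctrl-F1 sperm. Its raw count was higher in every sperm library than in any liver library, and the log2 difference was 5.82 (SE 0.38, edgeR adjusted p = 0.0012). Phf19, which brings PRC2 to chromatin marked by H3K36 methylation, was counted 1 and 3 times in the libraries of Ctrl-F1 liver and 109 and 67 times in those of Ctrl-F1 sperm. As CPM this was 317-fold more in sperm, with an exact 95% counting interval of 122 to 1176, and the fitted log2 difference was 8.42 (SE 0.61, edgeR adjusted p = 0.0012). Cbx6, a reader of H3K27me3, had 3.27 and 3.83 normalized CPM in Ctrl-F1 liver against 48.7 and 90.8 in Ctrl-F1 sperm, a log2 difference of 4.30 (SE 0.48, edgeR adjusted p = 0.0026). Exons of Cbx6 overlap those of Npcd on the same strand over 291 bases, so reads there may be split or lost. These 3 genes were called under every alternative tried. Bmi1, the PRC1 subunit that pairs with the ubiquitin ligase, rose by 2.00 (SE 0.33) and Phc2 by 1.96 (SE 0.28), from 21.2 and 21.4 normalized CPM in liver to 76.3 and 86.6 in sperm. Rbbp4 fell by 1.67 (SE 0.28), from 138 and 143 normalized CPM to 48.3 and 37.8, on scales set within each tissue. Its exons overlap those of Sync on the other strand over 518 bases.

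Because Phc1, Phf19 and Cbx6 set sperm apart from liver and are also the 3 members with the smallest p between KO-F2 and KO-F1 sperm, their promoters are shown. Each is the RefSeq sequence on the gene's strand in build GRCm38.p6, from 250 bases before to 50 after the annotated start, in lower case. Capitals mark TGACG or its reverse complement CGTCA, the core of the cAMP response element that CREM, an activator of late spermatogenesis genes, binds as part of TGACGTCA.
Phc1, chr6:122340178-122340477, minus strand: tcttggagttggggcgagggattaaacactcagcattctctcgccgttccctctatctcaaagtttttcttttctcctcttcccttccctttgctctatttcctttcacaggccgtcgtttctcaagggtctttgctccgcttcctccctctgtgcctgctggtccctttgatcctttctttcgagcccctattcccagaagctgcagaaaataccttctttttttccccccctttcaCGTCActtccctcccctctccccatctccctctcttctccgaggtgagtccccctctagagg
Phf19, chr2:34913927-34914226, minus strand: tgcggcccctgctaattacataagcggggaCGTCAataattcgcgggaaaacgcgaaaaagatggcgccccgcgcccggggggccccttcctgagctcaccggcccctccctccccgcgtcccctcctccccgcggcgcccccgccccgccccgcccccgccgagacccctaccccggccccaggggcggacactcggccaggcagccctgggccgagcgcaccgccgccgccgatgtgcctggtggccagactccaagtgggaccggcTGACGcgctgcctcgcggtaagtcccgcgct
Cbx6, chr15:79834284-79834583, minus strand: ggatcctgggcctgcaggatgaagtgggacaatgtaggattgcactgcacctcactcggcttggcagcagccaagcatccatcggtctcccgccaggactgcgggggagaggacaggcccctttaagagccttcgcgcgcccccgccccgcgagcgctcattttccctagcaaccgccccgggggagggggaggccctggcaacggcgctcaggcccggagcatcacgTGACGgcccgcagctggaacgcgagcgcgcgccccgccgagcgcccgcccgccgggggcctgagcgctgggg
The core occurred once in the Phc1 and Cbx6 windows and at 2 places in that of Phf19. On either strand it was in 20.8% of all 32851 promoters in the RefSeq set and in 16 of the 49 promoters found for 37 members, and the full TGACGTCA was in 1.79% of all promoters and in 1 of the members' 49. The Phc1 window held 9 CpG pairs, more than 54.2% of all promoters had, while the Phf19 window held 38 and the Cbx6 window 31, more than 95.05% and 89.4% had. The median was 24 in the members' promoters and 7 in all promoters, so many CpG pairs are common in this list. The core itself holds a CpG, and its share was not compared at equal CpG content. A match of letters is a description and no binding was measured here.

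In liver, no member was called between KO-F1 and Ctrl-F1 by edgeR (0 of 45 tested, 0% of all 11505 genes tested) or by DESeq2. Shares of all genes in this paragraph are those of edgeR, and those of DESeq2 were not determined. The study reported only a few differentially expressed genes in liver. At an unadjusted p under 0.05, 2 members were higher, where 3.99% of all genes were, and 1 was lower, where 5.42% were, and DESeq2 gave 1 and 1. Ring1, a ubiquitin ligase of PRC1, had 13.1 and 8.997 normalized CPM in Ctrl-F1 liver and 18.4 and 15.8 in KO-F1 liver, a log2 difference of 0.64 (95% interval 0.09 to 1.18, edgeR adjusted p = 0.508). Phf1, a PRC2 accessory protein related to Phf19, had 9.24 and 11.2 against 16.6 and 13.8, a log2 difference of 0.57 (0.07 to 1.07, edgeR adjusted p = 0.509). Rbbp7 had 56.7 and 51.6 against 40.5 and 39.0, a log2 difference of -0.45 (-0.79 to -0.10, edgeR adjusted p = 0.491). The libraries of the 2 groups did not overlap for these 3 genes, but no change passed the adjusted threshold. Groups without overlap were common here, with KO-F1 higher for 20.2% of all genes and lower for 21.4%. Among the members this held for 15.6% and 26.7%. Without KO-F1 liver 2 the count at an unadjusted p under 0.05 was 5. The median log2 fold change was -0.01 over the members and -0.01 over all genes.

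For the paired enzymes given here, the liver intervals all included 0, which does not show that the groups were alike. The log2 difference between KO-F1 and Ctrl-F1 was -0.22 (-0.72 to 0.27) for Ezh1 and -0.16 (-1.26 to 0.94) for Ezh2, the alternative methyltransferases of PRC2. It was 0.01 (-0.37 to 0.38) for Rbbp4 and 0.06 (-0.44 to 0.56) for Rnf2, the other PRC1 ligase. Of the H3K27 demethylases, Kdm6a was at -0.52 (-1.11 to 0.06) and Kdm6b at -0.14 (-0.68 to 0.40). The libraries did not overlap for Kdm6a, at 10.1 and 9.33 normalized CPM in Ctrl-F1 liver against 5.95 and 7.59 in KO-F1 liver. KO-F1 was lower without overlap for 21.4% of all genes. By role, 5 of the 6 PRC2 core genes had a negative sign and all 4 CBX readers a positive sign, with medians of -0.19 and 0.22, and only Rbbp7 among these 10 had an unadjusted p under 0.05.

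**Figure D2:**
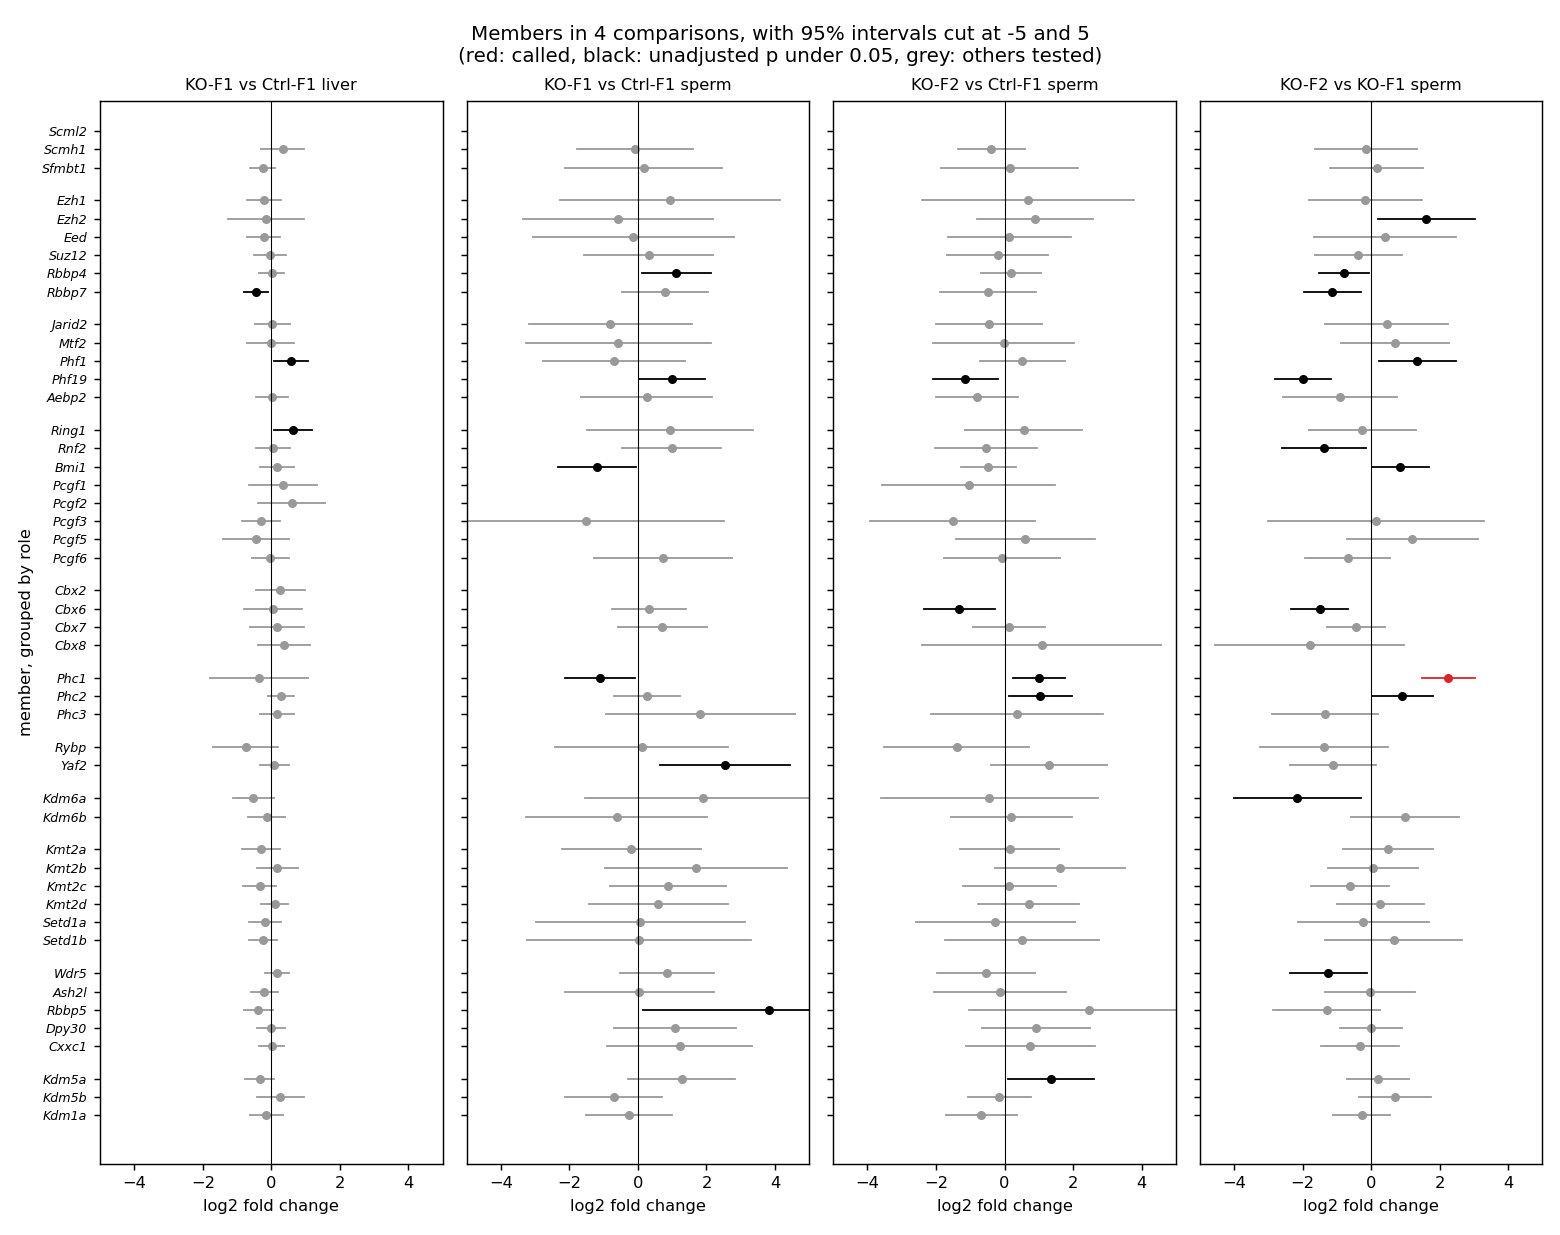
Log2 fold change of each member tested (horizontal) with its 95% interval cut at -5 and 5, members listed by role (vertical), in KO-F1 against Ctrl-F1 liver, KO-F1 against Ctrl-F1 sperm, KO-F2 against Ctrl-F1 sperm and KO-F2 against KO-F1 sperm, with called members in red and those at an unadjusted p under 0.05 in black. Phc1 in KO-F2 against KO-F1 sperm is the only red point, and the liver intervals are the narrowest.

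In sperm, no member was called between KO-F1 and Ctrl-F1 by edgeR (0 of 41 tested, 0% of all 10785 genes tested) or by DESeq2. The 0% is that of edgeR, and the share of all genes called by DESeq2 was not determined. The study reported differentially expressed genes in this comparison, using an earlier DESeq2 version and the same thresholds. At an unadjusted p under 0.05, 4 members were higher (Yaf2, Rbbp4, Rbbp5 and Phf19), where 8.88% of all genes were, and 2 were lower (Phc1 and Bmi1), where 10.6% were, and DESeq2 gave 3 and 0. The members leaned upward: the 2 groups did not overlap with KO-F1 higher for 16 members (39.0%, against 28.3% of all genes) and with KO-F1 lower for 4 (9.76%, against 25.8%). The median log2 fold change was 0.32 over members and 0.02 over all genes. KO-F1 sperm also had the lower share of late spermatogenesis counts given above, and whether the lean is tied to that share was not tested. Scaling the libraries on those 40 genes placed the median of all genes at 1.78 and that of the members at 2.04. Of the 38 of them tested, 33 were lower in KO-F1 at an unadjusted p under 0.05. The study reported Prm1, Prm2, Prm3 and Tnp2 among the downregulated genes. Such scaling treats the list as unchanged, so all other genes shift upward by construction. Without KO-F1 sperm 1 the count at an unadjusted p under 0.05 was 1, and without KO-F1 sperm 2 it was 2.

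Yaf2, which like Rybp ties non-canonical PRC1 to chromatin, had 4.31 and 5.88 normalized CPM in Ctrl-F1 sperm and 42.9 and 17.1 in KO-F1 sperm. The groups did not overlap, with a log2 difference of 2.53 (SE 0.82, 95% interval 0.63 to 4.43, edgeR adjusted p = 0.166), which did not pass the threshold. The ratio of Yaf2 to its paralog Rybp, per exon length within each library, was 1.72 and 1.10 in Ctrl-F1 sperm, 7.77 and 5.81 in KO-F1 sperm, 6.04 and 12.0 in KO-F2 sperm and 9.29 to 26.9 in the 4 liver libraries, so the Ctrl-F1 sperm libraries were the lowest of the 10. The counts behind those 2 ratios were small, 10 and 7 for Yaf2 and 11 and 12 for Rybp.

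Rbbp5, a shared subunit of the H3K4 methyltransferases, had 0 and 3 counts in Ctrl-F1 sperm, 29 and 54 in KO-F1 sperm and 69 and 43 in KO-F2 sperm. All 5 shared subunits (Wdr5, Ash2l, Rbbp5, Dpy30 and Cxxc1) had a positive sign in KO-F1 against Ctrl-F1 sperm, with a median of 1.07, and only Rbbp5 had an unadjusted p under 0.05. Rbbp4 had 48.3 and 37.8 normalized CPM in Ctrl-F1 sperm against 92.6 and 99.4 in KO-F1 sperm, a log2 difference of 1.13 (SE 0.44, edgeR adjusted p = 0.219). Phc1 and Bmi1 were the lower members, from 83.2 and 115 to 42.3 and 50.8 for Phc1 and from 54.3 and 66.4 to 30.1 and 23.5 for Bmi1, with log2 differences of -1.10 (SE 0.44, edgeR adjusted p = 0.226) and -1.19 (SE 0.50, edgeR adjusted p = 0.242). Scaled on the late spermatogenesis genes they were at 0.62 and 0.56, still under the median of all genes on that scale, 1.78. Ezh1 and Ezh2 could not be placed: Ezh1 had 1 and 23 counts in Ctrl-F1 sperm and 102 and 15 in KO-F1 sperm, and its interval ran from -2.27 to 4.15.

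In 31 of the 47 members no comparison between groups of a tissue reached an unadjusted p under 0.05. The set is defined by that p, so small changes against error are built into it. The matching share of all genes was not determined. The set includes Scml2, which was too low for the test in each of these comparisons. Of the 31, 30 were tested in liver. Their liver log2 differences ran from -0.74 (95% interval -1.69 to 0.20) for Rybp to 0.60 (-0.38 to 1.57) for Pcgf2, a PRC1 ring finger subunit. In sperm the same set spread further, with 25 tested for KO-F1 against Ctrl-F1, from -1.52 (-5.54 to 2.50) for Pcgf3 to 1.82 (-0.93 to 4.57) for Phc3, so differences of several fold would not have been detected. Members too low for the test were Scml2 and Phf19 in liver, and Scml2, Pcgf1, Pcgf2, Pcgf5, Cbx2 and Cbx8 in sperm for KO-F1 against Ctrl-F1. Scml2, Pcgf2 and Cbx2 were also too low in both comparisons with KO-F2 sperm, and Pcgf1 in KO-F2 against KO-F1. The PRC2 core subunits Eed and Suz12 and the H3K4 methyltransferases Kmt2a to Kmt2d, Setd1a and Setd1b all belong to the 31.

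Paralogs that share a role did not move as pairs beyond their intervals in sperm. For KO-F1 against Ctrl-F1 the log2 difference was -0.57 (-3.34 to 2.19) for Ezh2. For the ligases it was 0.94 (-1.48 to 3.36) for Ring1 and 0.98 (-0.46 to 2.43) for Rnf2. The H3K27 demethylase Kdm6a was at 1.89 (-1.55 to 5.32) and Kdm6b at -0.62 (-3.27 to 2.02), while the H3K4 demethylase Kdm5a was at 1.28 (-0.28 to 2.85) and Kdm5b at -0.71 (-2.13 to 0.72). Rbbp7 was at 0.80 (-0.46 to 2.06) and Rybp at 0.11 (-2.42 to 2.63). Every one of these intervals included 0. In KO-F2 against KO-F1 sperm, Rnf2 was at -1.38 (SE 0.52, edgeR adjusted p = 0.103) and Kdm6a at -2.16 (SE 0.79, edgeR adjusted p = 0.0942), against -0.25 for Ring1 and 0.99 for Kdm6b. In that comparison Ezh1 was at -0.17, Rbbp4 at -0.79, Rybp at -1.37, Yaf2 at -1.12, Kdm5a at 0.20 and Kdm5b at 0.71.

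**Figure D3:**
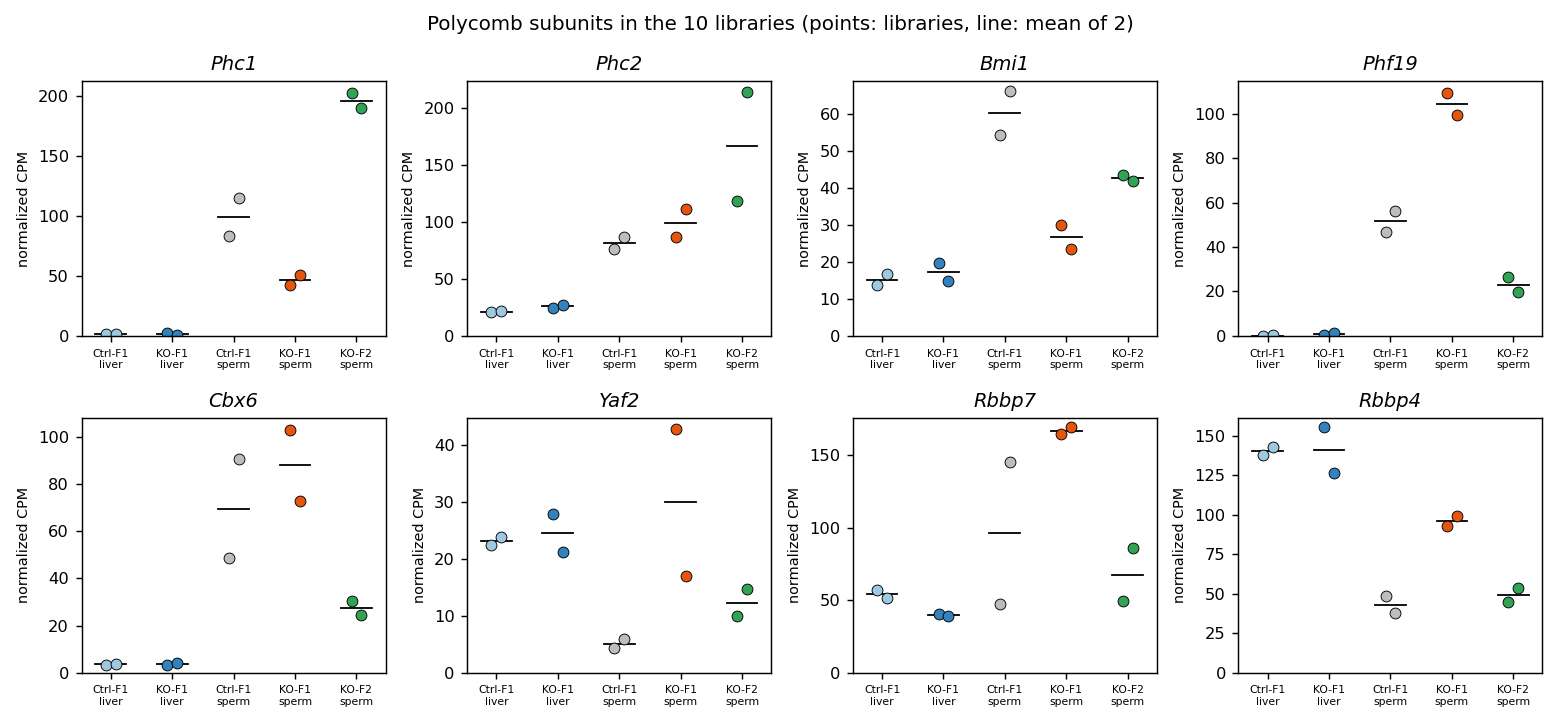
Normalized CPM (vertical, each panel from 0) of 8 Polycomb subunits in the 5 groups (horizontal), with a point for each library and a line at the mean of 2. Phc1 is near 0 in liver and highest in KO-F2 sperm, while Phf19 and Cbx6 are lowest of the sperm groups in KO-F2.

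Between the generations, 1 of 43 members tested was called in KO-F2 against KO-F1 sperm, where 2.31% of all 13517 genes were. Phc1 had 42.3 and 50.8 normalized CPM in KO-F1 sperm and 203 and 190 in KO-F2 sperm. Both KO-F2 libraries lay above every other sperm library, and the log2 difference was 2.26 (SE 0.33, 95% interval 1.49 to 3.02, edgeR adjusted p = 0.0098). The log2 difference was 2.19 without KO-F2 sperm 1 and 2.38 without KO-F2 sperm 2. With all 3 sperm groups in 1 model it was 2.08 (edgeR adjusted p = 0.0109). The call was lost in each of these fits, while DESeq2 gave 2.21 (adjusted p = 6.57e-08). The number of members called also moved when a library was left out, and the share of all genes called in those fits was not determined. How Phc1 compared with a marker list depended on the list. Relative to the late spermatogenesis list, it had 5.29 and 6.92 counts per 10000 list counts in Ctrl-F1 sperm, 7.84 and 11.4 in KO-F1 sperm and 11.53 and 10.9 in KO-F2 sperm. On that scale KO-F1 overlapped KO-F2. A fit scaled on those genes put the log2 difference of Phc1 at 0.01 (edgeR adjusted p = 0.989) and the median of all genes at -2.13, so Phc1 stayed above that median. Of the 40 list genes, 35 were themselves higher in KO-F2 at an unadjusted p under 0.05, where 22.4% of all genes were. The scaling treats them as unchanged, so the downward shift of all genes follows from it by construction. Relative to the epididymal epithelium list, Phc1 had 6.00 and 11.6 in KO-F1 sperm and 187 and 423 in KO-F2 sperm, a log2 ratio of the means of 5.12. Gpx3 alone held 80.5% and 63.2% of that list's counts in KO-F1 sperm and 52.4% and 39.0% in KO-F2 sperm. Ratios to the list without Gpx3 were not determined.

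Phf19 and Cbx6 ran in the opposite direction to Phc1. Phf19 had 46.99 and 56.3 normalized CPM in Ctrl-F1 sperm, 109 and 99.4 in KO-F1 sperm and 26.4 and 19.8 in KO-F2 sperm. The 3 groups did not overlap, and the log2 difference of KO-F2 against KO-F1 was -1.99 (SE 0.34, 95% interval -2.80 to -1.18, edgeR adjusted p = 0.0128), just outside the threshold. The edgeR adjusted p was 0.0063 without KO-F1 sperm 1, 0.0019 without KO-F1 sperm 2, 0.0448 without KO-F2 sperm 1 and 0.102 without KO-F2 sperm 2, where the lone library of a group is assumed to vary like the other group. DESeq2 called Phf19. Cbx6 had 103 and 72.9 in KO-F1 sperm against 30.3 and 24.4 in KO-F2 sperm, a log2 difference of -1.50 (SE 0.35, edgeR adjusted p = 0.0282), and its 2 Ctrl-F1 libraries, at 48.7 and 90.8, overlapped KO-F1. Relative to the epididymal epithelium list, Phf19 had 13.6 and 27.7 counts per 10000 list counts in Ctrl-F1 sperm, 15.5 and 22.7 in KO-F1 sperm and 24.3 and 44.0 in KO-F2 sperm. For Cbx6 the same ratios were 14.1 and 44.6, 14.7 and 16.6, and 27.9 and 54.3. On that scale KO-F2 was not the lowest group for either gene. Gpx3 led that list in KO-F1 and KO-F2 sperm, so these ratios partly follow that 1 gene, and ratios without it were not determined. Relative to the late spermatogenesis list the order was the opposite, with Phf19 at 20.25 and 22.2 in KO-F1 sperm against 1.503 and 1.13 in KO-F2 sperm. Cbx6 was at 19.15 and 16.3 against 1.72 and 1.39, and the fit scaled on that list called both genes lower in KO-F2, at log2 differences of -4.27 and -3.79 (edgeR adjusted p = 0.0011 for each). Under that scaling the median of all genes was -2.13. Relative to the leukocyte list, too, both were lower in KO-F2, with log2 ratios of the means of -5.39 and -4.95, and Phc1 was at -1.13. Fewer cells that carry a transcript and less of it per cell cannot be told apart in these bulk libraries.

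**Figure D4:**
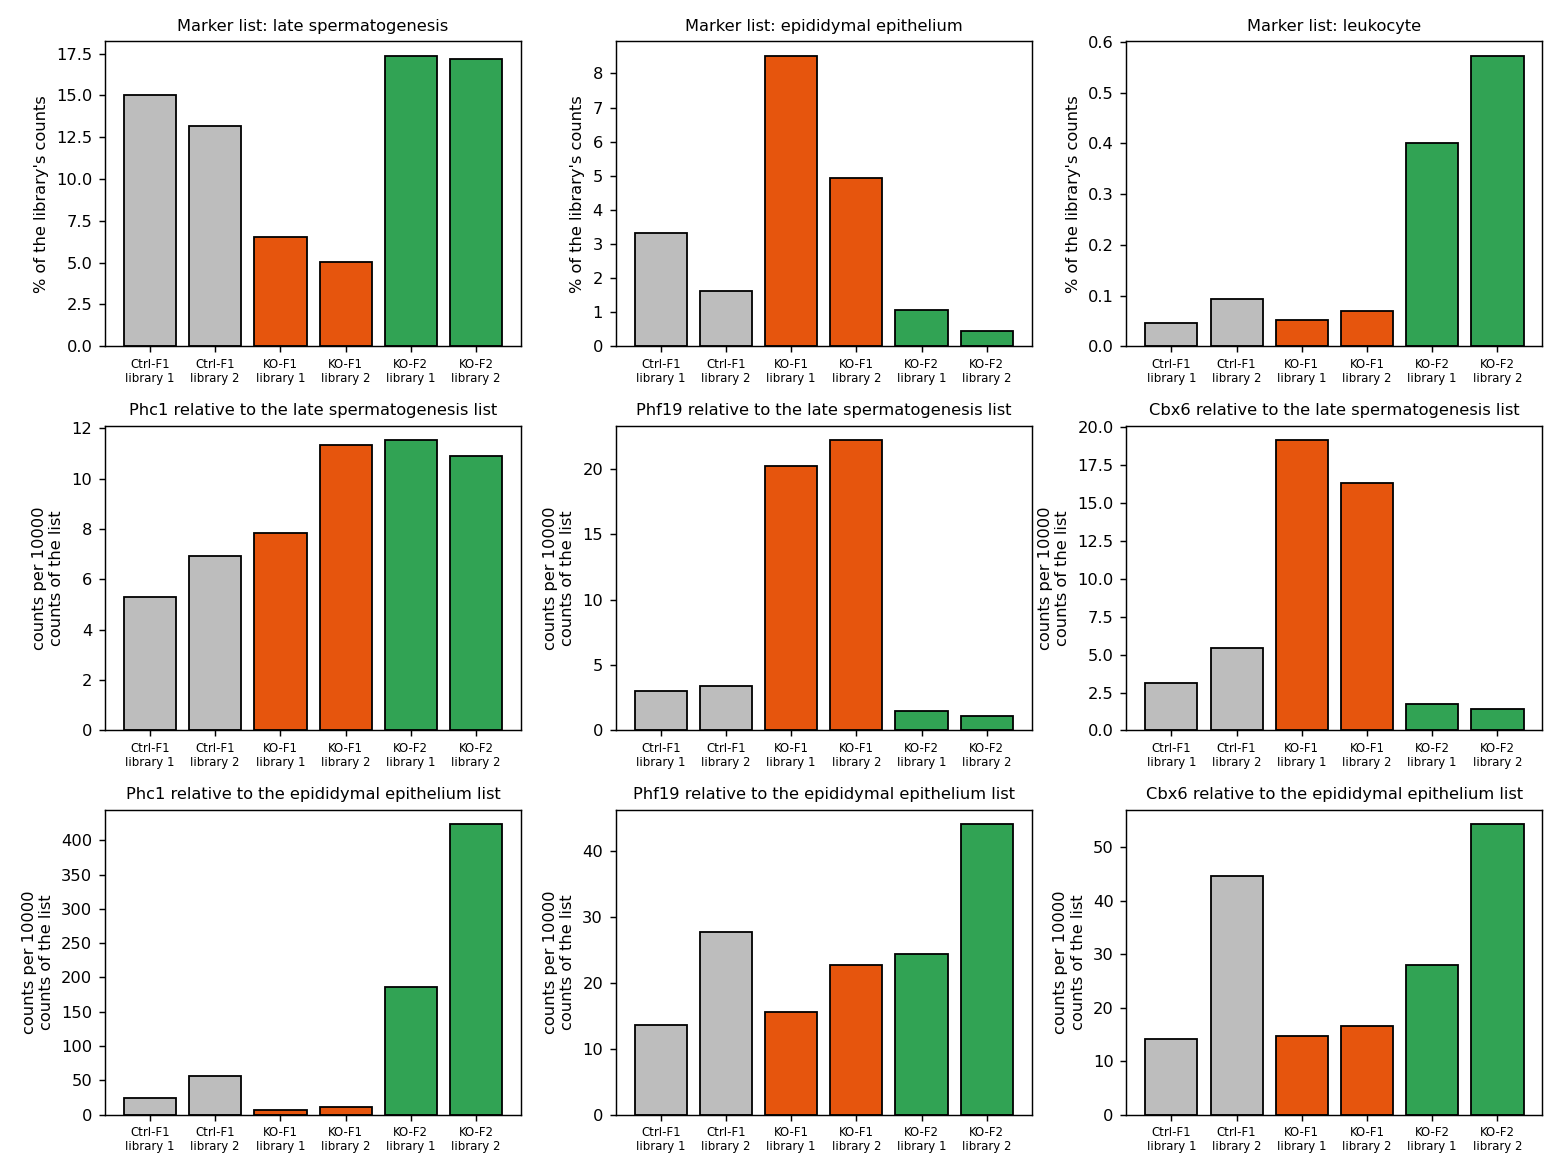
Upper panels: share of each sperm library's counts (vertical, %) in 3 marker lists: epididymal epithelium, leukocyte and late spermatogenesis genes. Middle and lower panels: counts of Phc1, Phf19 and Cbx6 per 10000 counts of the late spermatogenesis list (middle) and of the epididymal epithelium list (lower), 1 bar for each of the 6 sperm libraries. Phf19 and Cbx6 are lowest in KO-F2 on the first list and not on the second. Phc1 overlaps between KO-F1 and KO-F2 on the first and is highest in KO-F2 on the second. Gpx3 leads the second list in KO-F1 and KO-F2 sperm.

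At an unadjusted p under 0.05, 5 members were higher in KO-F2 than in KO-F1 sperm (Phc1, Phf1, Ezh2, Bmi1 and Phc2), where 22.4% of all genes were, and 7 were lower (Phf19, Cbx6, Rbbp7, Kdm6a, Rnf2, Wdr5 and Rbbp4), where 14.4% were. The share of members that were higher (5 of 43) was under that of all genes. Both KO-F2 libraries lay above both KO-F1 libraries for 37.2% of all genes tested and under both for 28.7%. Scaled on the late spermatogenesis genes, 0 members were higher and 33 lower, with the median of all genes at -2.13, so these directions are relative to all genes. Without KO-F1 sperm 2 the count was 20, and without either KO-F2 library it was 5. Ezh2 had 5.66 and 3.84 normalized CPM in KO-F1 sperm and 11.9 and 14.1 in KO-F2 sperm, a log2 difference of 1.62 (SE 0.60, edgeR adjusted p = 0.0987). Rbbp7 had 164 and 169 against 49.2 and 85.9, a log2 difference of -1.14 (SE 0.35, edgeR adjusted p = 0.0607), and its exons overlap those of Txlng on the other strand over 174 bases. Kdm6a, an X-linked H3K27 demethylase, had 23 and 42 counts in the KO-F1 libraries and 29 and 19 in the deeper KO-F2 libraries. The median log2 fold change was -0.17 over the members and 0.13 over all genes.

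Against Ctrl-F1 sperm, KO-F2 sperm had no member called by edgeR (0 of 44 tested, 0% of all 13149 genes tested) or by DESeq2. Shares of all genes in this paragraph are those of edgeR, and those of DESeq2 were not determined. In this comparison, too, the study reported differentially expressed genes, using an earlier DESeq2 version and the same thresholds. At an unadjusted p under 0.05, 3 members were higher (Phc1, Phc2 and Kdm5a), where 9.07% of all genes were, and 2 were lower (Cbx6 and Phf19), where 5.83% were, and DESeq2 gave 3 and 2. The count was 13 without Ctrl-F1 sperm 1, 11 without Ctrl-F1 sperm 2, 1 without KO-F2 sperm 1 and 0 without KO-F2 sperm 2. This comparison shares its KO-F2 libraries with the comparison above and its Ctrl-F1 libraries with KO-F1 against Ctrl-F1, so the values stand side by side and are not independent. For Phc1 the log2 difference was 1.01 (SE 0.31, edgeR adjusted p = 0.231), for Phf19 -1.14 (SE 0.38, edgeR adjusted p = 0.246) and for Cbx6 -1.32 (SE 0.42, edgeR adjusted p = 0.236). Phc2 had 119 and 214 normalized CPM in KO-F2 sperm, above both Ctrl-F1 libraries, with a log2 difference of 1.05 (SE 0.38, edgeR adjusted p = 0.280). Kdm5a, an H3K4 demethylase whose exons overlap Ccdc77 on the other strand, was at 9.05 and 16.0 in Ctrl-F1 sperm, 35.4 and 25.6 in KO-F1 sperm and 25.3 and 37.1 in KO-F2 sperm, with a log2 difference of 1.36 (SE 0.52, edgeR adjusted p = 0.300).

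Ratios of paralogs within a library do not depend on the scaling between libraries, and 3 more (Phf19 to Phf1, Phc1 to Phc2 and Cbx6 to Cbx8) were chosen after the values were seen. Phf19 to Phf1, per exon length, was 2.74 and 2.31 in Ctrl-F1 sperm, 8.57 and 7.62 in KO-F1 sperm, 0.901 and 0.683 in KO-F2 sperm and at most 0.0527 in liver, so the 3 sperm groups did not overlap. Phc1 to Phc2 was 1.204 and 1.47 in Ctrl-F1 sperm, 0.539 and 0.502 in KO-F1 sperm, and 1.88 and 0.980 in KO-F2 sperm, with KO-F1 under the other sperm groups, and at most 0.0963 in liver. Cbx6 to Cbx8 did not separate the sperm groups, at 9.20 in the Ctrl-F1 library that had Cbx8 counts, 22.2 and 1.18 in KO-F1 sperm and 3.81 and 2.70 in KO-F2 sperm. The ratio of Rbbp7 to Rbbp4 was 0.505 to 0.799 in the 4 liver libraries and 1.89 to 7.46 in the 6 sperm libraries, which did not overlap. Of the lysine 4 demethylases, Kdm5b to Kdm5a was 7.71 and 3.57 in Ctrl-F1 sperm and 0.761 to 2.34 in the other 4 sperm libraries, with Ctrl-F1 above the rest. The ratio of Ezh1 to Ezh2 was 1.61 to 3.24 in liver and ran from 0.0288 to 3.40 in sperm, too scattered at these counts to order the groups.

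Cbx2, Rbbp5 and Cbx8 had next to no reads in Ctrl-F1 sperm. Cbx2, a PRC1 reader, was counted 87 and 83 times in Ctrl-F1 liver but never in either Ctrl-F1 sperm library, at least 7.87-fold lower in sperm with 3 counts over the group as the limit. It had 41 and 0 in KO-F1 sperm and 10 and 10 in KO-F2 sperm, so its 41 counts came from 1 library. Rbbp5, described above, was at 0 and 3. Cbx8, another PRC1 reader, was also at 0 and 3, with 79 and 73 counts in Ctrl-F1 liver.

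Whether the KO-F1 effect differed between tissues was tested as an interaction. No member was called by edgeR (0 of 47, 0% of all 14415 genes tested) or by DESeq2, whose share of all genes was not determined. At an unadjusted p under 0.05, 4 members had a more positive effect in sperm, where 7.85% of all genes had, and 2 a more negative one (Bmi1 and Pcgf1), where 6.49% had, and DESeq2 gave 4 and 3. The 4 were Rbbp5, Yaf2, Kdm5a and Rbbp4. For Yaf2 the difference between effects was 2.36 (SE 0.74, edgeR adjusted p = 0.236) and for Bmi1 -1.47 (SE 0.52, edgeR adjusted p = 0.269). Without Ctrl-F1 sperm 1 the count was 11, and without any 1 of the liver libraries it was 2 or 3.

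The wider pathway was read from 23 other Polycomb-linked genes and 16 other H3K4 regulators. None was called in liver or between sperm groups. In Ctrl-F1 sperm against liver, 2 of 19 Polycomb-linked genes and 2 of 16 H3K4 regulators tested were called, where 30.2% of all genes were. Sfmbt2, a Polycomb-linked MBT protein (log2 difference 5.41, SE 0.70), Scml4, a relative of Scml2 (7.02, SE 1.18, on 0 and 1 counts in liver), and Psip1, a chromatin reader (1.75, SE 0.32), were higher, and Wdr82, a subunit of the SETD1 complexes (-3.26, SE 0.43), was lower. In KO-F2 against KO-F1 sperm, 3 of 20 Polycomb-linked genes tested were higher and 5 lower at an unadjusted p under 0.05, and 0 of 15 H3K4 regulators were higher and 2 lower, where 22.4% of all genes were higher and 14.4% lower. Asxl1, a cofactor of the H2A deubiquitinase that opposes PRC1, led the higher genes (1.45, SE 0.39, edgeR adjusted p = 0.0411), and the transcription factor Yy1 led the lower (-1.70, SE 0.50, edgeR adjusted p = 0.0519). Among the Polycomb-linked genes, Yy1 also had the smallest p for a higher level of KO-F1 sperm over Ctrl-F1 sperm (1.91, SE 0.65, edgeR adjusted p = 0.176), and that comparison shares the KO-F1 libraries. Yy1 had 30 and 17 counts in Ctrl-F1 sperm, 253 and 69 in KO-F1 sperm and 174 and 107 in the deeper KO-F2 libraries. In liver 0 of 17 Polycomb-linked genes and 2 of 16 H3K4 regulators (Rcor1 and Paxip1, both lower) had an unadjusted p under 0.05, where 3.99% of all genes were higher and 5.42% lower.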

How the data were processed

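RNA was sequenced as 75-base single-end reads from liver (TruSeq Stranded mRNA) and from motile cauda epididymal sperm obtained by swim-up (SMART-Seq v4, PCR-amplified). Per the submitters' processing notes and methods, the authors aligned reads with HISAT2 2.1.0 to GRCm38/mm10 and counted unique reads per gene with featureCounts, and they deposited the raw counts used here. The annotation and strand setting are not given in the sources used here, so reads of overlapping genes may be split. KO-F2 sperm libraries carry a run label and F1 sperm libraries none, so run and generation cannot be told apart. No unit other than counts was used, and embryo and chromatin samples were not analysed here.

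Members and lists were chosen with earlier results of these data known. Each comparison was fitted over all genes with edgeR 4.0.16 (TMM, filterByExpr with a minimum count of 10, quasi-likelihood test, Benjamini-Hochberg) on the 4 libraries of its 2 groups, or 8 for the interaction. To be called, a gene needed an adjusted p under 0.01 and a change of 2-fold or more. An exact permutation test of 2 against 2 libraries cannot go below 0.333 and was not used. Normalized CPM were scaled by TMM within each tissue, and levels per length were divided by the union of RefSeq exons. Named members were those called, up to 3 higher and 3 lower by smallest p, Scml2 and paralog pairs, and named pathway genes were those called and up to 2 in each direction, and genes named beyond this rule were chosen after their values were seen. The exact counting interval and the limits set from 0 counts cover counting error only, since PCR reads carry no molecular identifiers, whereas intervals of log2 fold changes come from the fits and include the spread between libraries. DESeq2 1.42.0, other filters, scalings, depths and left-out libraries were alternatives. The test was also run on simulated counts, whose outcome is not given here and on which no result rests. Library totals were 1503733 to 14278900 counts.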

Additional observations from a re-analysis of the deposited data

Results flagged for a closer look

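The sperm level of Phc1 differed from Ctrl-F1 in opposite directions in the 2 generations, at log2 differences of -1.10 in KO-F1 and 1.01 in KO-F2, neither past the threshold. The difference between those effects, which is KO-F2 against KO-F1 directly, was 2.26 (edgeR adjusted p = 0.0098), with both KO-F2 libraries above both KO-F1 libraries. When libraries were scaled on the late spermatogenesis genes it was 0.01, on a scale where the median of all genes was -2.13. Phf19 had the reverse pattern, at 1.00 in KO-F1 and -1.14 in KO-F2, with a difference of -1.99 that missed the threshold (edgeR adjusted p = 0.0128).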

How the results depend on the processing

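Over all alternatives, 1136 of 1185 values of named members kept their sign, and 33 of 98 members' values changed sign at least once. Phc1, Phf19 and Cbx6 stayed called in Ctrl-F1 sperm against liver under every alternative tried, and no liver member was called under any. Each group had 2 libraries, and F1 sperm totals were 1503733 to 2778171 counts. The coefficient of variation between libraries that edgeR estimated over all genes was 0.60 for KO-F1 against Ctrl-F1 in sperm and 0.20 in liver. What made the sperm intervals wide was not tested. The unadjusted interval of a log2 fold change for KO-F1 against Ctrl-F1 reached 2.02 to either side in sperm and 0.50 in liver (medians over members). For KO-F2 sperm it reached 1.64 against Ctrl-F1 and 1.30 against KO-F1. Differences smaller than these widths were often not detectable, and larger ones could still miss the adjusted threshold. Where a value below moved, the cause was not tested, apart from the fewer libraries or genes that a setting itself leaves. For the alternatives, here and above, the matching shares of all genes called or at an unadjusted p under 0.05 were not determined.

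For KO-F1 against Ctrl-F1 sperm, the 6 members at an unadjusted p under 0.05 became 3 with DESeq2, 3 with at least 10 counts in every library and 22 when scaled on the late spermatogenesis list. The median of 0.32 became 2.04 under that scaling and 0.51 with counts thinned to the smallest library. That scaling placed the median of all genes at 1.78, and Phc1 (0.62), Bmi1 (0.56), Kdm5b (1.06), Ezh2 (1.26) and Kdm6b (1.19) turned positive but stayed under it. For KO-F2 against Ctrl-F1 sperm, the median of 0.14 became -0.19 with the stricter filter and -0.10 under that scaling, where the count of 5 became 2 and Rbbp4 turned to -0.030. Thinning turned Kdm6b to -0.26.

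For KO-F2 against KO-F1 sperm, 1 member was called. It became 3 with DESeq2, 3 with no filter, 2 with the stricter filter, 3 with an adjusted p under 0.05 and no fold threshold, 20 under late spermatogenesis scaling, 2 with thinned counts and 0 with all 3 sperm groups in 1 model. The share of all genes called was not determined for these settings. The count of 12 at an unadjusted p under 0.05 became 33 under that scaling and 7 in the 3-group model, and the median of -0.17 became -2.44 under the scaling. The sign turned for Ezh1 with the stricter filter (0.023), and under the scaling, which placed the median of all genes at -2.13, Phf1 (-0.90), Ezh2 (-0.63), Kdm6b (-1.23), Kdm5a (-2.04) and Kdm5b (-1.53) turned negative but stayed above it.

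For Ctrl-F1 sperm against liver, the median of -0.38 became -0.52 with no filter, 0.35 with the stricter filter and 0.19 thinned, when Ezh1 turned to 0.36. With an adjusted p under 0.05 and no fold threshold, 13 members were called in place of 6. The median member level in Ctrl-F1 liver became 2.37 with the longest transcript as length.

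Replicate numbers are shared by the groups only as numbers. Deviations of same-numbered libraries correlated at -0.16 in liver and at -0.01 to 0.16 elsewhere. With the number as a replicate block, 2 members were called in KO-F2 against KO-F1 sperm and 3 in Ctrl-F1 sperm against liver, and no other count of calls changed. The block gave 2 members at an unadjusted p under 0.05 for KO-F1 against Ctrl-F1 sperm and 3 for the interaction, and medians of 0.012 in KO-F2 against KO-F1 sperm and -0.58 in sperm against liver. Ezh1 turned to 0.11 in KO-F2 against KO-F1 sperm and Kdm6a to 0.39 in KO-F2 against Ctrl-F1 sperm. A crossed pairing in liver, chosen after seeing the data, gave 0 called and 3 at an unadjusted p under 0.05.

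Leaving out 1 library at a time, with the lone library of its group assumed to vary like the others, gave these ranges. In liver the count at an unadjusted p under 0.05 was 2 to 5, the median -0.11 to 0.018, Ezh2 -0.82 to 0.29, Rbbp4 -0.14 to 0.15, Rnf2 -0.10 to 0.21, Yaf2 -0.11 to 0.27, Kdm6b -0.37 to 0.068 and Kdm5b -0.14 to 0.84. In KO-F1 against Ctrl-F1 sperm the count was 1 to 6, the median 0.12 to 0.61, Ezh1 -0.60 to 5.23, Ezh2 -1.02 to 0.17, Ring1 -0.050 to 1.54, Rybp -0.41 to 0.71 and Kdm6b -1.05 to 0.070. In KO-F2 against Ctrl-F1 sperm it was 0 to 13, the median 0.073 to 0.30, Ezh1 -0.35 to 5.05, Rbbp7 -1.04 to 0.56, Kdm6a -1.26 to 7.09, Kdm6b -0.18 to 0.94 and Kdm5b -0.26 to 0.064. In KO-F2 against KO-F1 sperm 0 to 4 members were called, the count was 5 to 20, the median -0.39 to 0.082, Ezh1 -0.91 to 1.30, Ring1 -0.87 to 0.70 and Kdm5a -0.036 to 0.45. In Ctrl-F1 sperm against liver 3 to 23 were called, the count was 6 to 31, the median -0.90 to -0.22, Ezh1 -4.65 to 0.64 and Rbbp7 -0.23 to 1.24. In the interaction the count was 2 to 11, the median 0.086 to 0.42, Ezh1 -0.28 to 5.40, Ezh2 -1.03 to 0.33, Ring1 -0.76 to 0.80 and Kdm6b -1.10 to 0.18.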
